A study of Rattus norvegicus with 8 samples.

Results

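The 6 adenylyl cyclase genes Adcy2, Adcy3, Adcy5, Adcy6, Adcy8 and Adcy9 were followed in hippocampal CA3 neurons of the rat after traumatic brain injury. Their probes were found by gene name among those that are not controls, which gave 8 probes of 41012. The genes were selected on measured values of these same arrays, in a rule that reads the log2 signal of each probe across the 4 groups. Their levels and differences are therefore a description and carry no test.

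Neurons were captured by laser from stained frozen sections of male Sprague-Dawley rats whose age was not given. Naïve rats had no treatment, sham rats had sham injury, and injured rats had moderate fluid percussion injury, with brains removed 24 h later. Dying neurons were positive for Fluoro-Jade, a stain for degenerating neurons, and surviving neurons were Fluoro-Jade-negative cells next to them. Each group had 2 single-colour Agilent whole-genome arrays. According to the methods, each pool of injured neurons came from at least 3 rats, and the rats behind each pool were not named, so that surviving and dying pools may share animals. The methods describe a pool of its own for each replicate of injured neurons. Surviving and dying neurons shared 1 slide, and sham and naïve neurons shared the other. Against sham, an effect of injury and a difference between slides cannot be told apart.

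Adenylyl cyclases make the second messenger cyclic AMP from ATP. The membrane-bound enzymes are switched on by the stimulatory G protein Gs, and several are held back by the inhibitory Gi proteins. They differ in how they respond to calcium, to protein kinase C and to the beta-gamma subunits of G proteins. Cyclic AMP acts through protein kinase A and the Epac exchange factors, and in the hippocampus it is known for its part in synaptic plasticity, including long-term potentiation at the mossy fiber synapses onto CA3 neurons.

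A level is given as the log2 of the signal over the median of its array, replicate 1 before replicate 2, so that a difference of 1 is a doubling. Levels of different probes cannot be compared with each other. Before scaling, the median signal was 27.2 and 22.7 on naïve arrays, 16.5 and 16.4 on sham arrays, 52.2 and 48.2 on surviving arrays, and 19.2 and 52.6 on dying arrays. Between 20191 and 29345 probes were well above background on an array. Dying replicate 1 stood apart from the other arrays. Of the 16801 probes well above background on the other 7 arrays, 9.23% were not so on dying replicate 1, while the same share for each of the other arrays lay between 0.216% and 2.64%.

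A linear model of the 4 groups (limma) was fitted over all probes, with p-values adjusted by the Benjamini-Hochberg method and a threshold of 0.05. Between surviving and dying neurons, 0 of the 8 cyclase probes passed, beside 0 of all 27391 probes tested (0%). At an unadjusted p under 0.05 stood 0 cyclase probes and 5640 of all probes, and without dying replicate 2 the adjusted test called 5408. Between surviving and sham neurons, 0 of 8 cyclase probes passed, beside 16.3% of 26905 probes, and 1 had an unadjusted p under 0.05, as had 9606 of all probes. Between dying and sham neurons, 0 of 7 cyclase probes tested passed, beside 40.8% of 25623 probes, and 2 had an unadjusted p under 0.05, as had 13454 of all probes. Between sham and naïve neurons, 0 of 8 cyclase probes passed, beside 0 of 20676 probes (0%), with 789 of all probes and 0 cyclase probes at an unadjusted p under 0.05. Dying arrays decided some of these counts. Without dying replicate 2, 2 cyclase probes passed between surviving and dying neurons and 3 between dying and sham neurons, and without dying replicate 1, 2 passed between dying and sham neurons. Of all probes, 12794 of 26622 passed between dying and sham neurons without dying replicate 2 and 7589 of 28811 without dying replicate 1. Without dying replicate 2, Adcy3 and the dimmer Adcy9 probe entered the tests only through the group where they were higher. Nothing is read from these counts, for that reason and because the genes were selected on the same values.

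The direction against sham depends on how the arrays are scaled. Under the median scaling, surviving neurons had 1555 probes higher and 2833 lower than sham, and dying neurons had 3481 higher and 6975 lower. Probes well above background on all 4 arrays compared split 100 higher and 1681 lower in surviving, and 672 and 4862 in dying neurons. With scaling to the 75th percentile, 3860 of all probes tested were higher and 1304 lower in surviving neurons. In dying neurons 6664 were higher and 4407 lower. The median difference from sham over all probes moved from -0.73 to 0.05 in surviving neurons with that scaling. With scaling to the median of probes above background on all arrays, chosen after the data were seen, it was 0.27 in surviving and 0.31 in dying neurons, where the median scaling gave -0.74 in dying neurons. Between sham and naïve neurons it was 0.44 under the median scaling and 0.15 with the 75th percentile. Without 1 array of surviving or sham neurons, between 190 and 398 probes passed between these groups. Between dying and sham neurons 1857 passed without sham replicate 1 and 3792 without sham replicate 2.

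**Figure D1:**
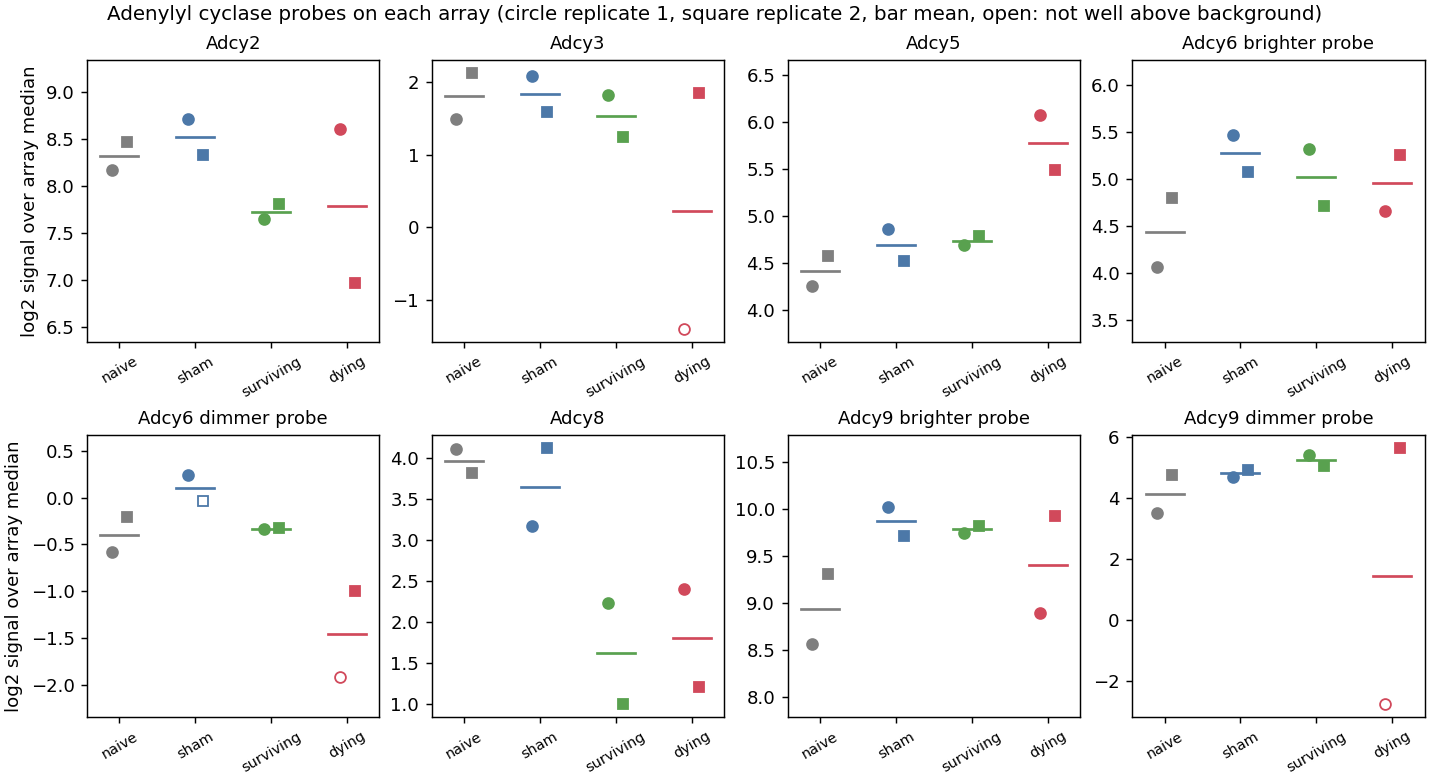
Log2 signal over the array median of the 8 cyclase probes on each of the 8 arrays, with the group mean as a bar and open symbols where a probe was not well above background. Adcy8 was at 2.40 or lower on the 4 arrays of injured rats and at 3.17 or higher on the others, and the dimmer Adcy9 probe was at -2.76 on dying replicate 1, where it was not well above background.

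Adcy8 is a cyclase that calcium and calmodulin stimulate, and it is known as a calcium sensor of hippocampal synapses. Its level was 4.11 and 3.82 on naïve arrays, 3.17 and 4.12 on sham arrays, 2.23 and 1 on surviving arrays, and 2.40 and 1.21 on dying arrays. All 4 arrays of injured rats lay below all 4 of uninjured rats, and the probe was well above background on all 8. Surviving neurons were lower than sham by a difference of -2.03 (SE 0.65, n = 2 arrays a group), a 4.08-fold difference, and dying neurons by -1.84 (SE 0.65). Surviving and dying neurons overlapped, with a difference of -0.19 that turned positive with the normexp correction, without surviving replicate 2 and without dying replicate 1. The difference from sham kept its sign in all 15 alternatives for both injured groups, but under the other scalings and corrections it lay between -1.32 and -0.62 for surviving and between -1.19 and -0.84 for dying neurons. Of the 8 probes, Adcy8 had the largest difference between surviving and sham neurons under the median scaling. In bulk pools, fewer cells of a type and less RNA per cell cannot be told apart.

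Adcy3 is best known as the cyclase of olfactory neurons and of neuronal primary cilia. Its level was 1.49 and 2.12 on naïve arrays, 2.08 and 1.58 on sham arrays, 1.82 and 1.24 on surviving arrays, and -1.39 and 1.84 on dying arrays. Dying replicate 1, where the probe was not well above background, was the only low array, and all other arrays overlapped. The difference between surviving and dying neurons was 1.30 (SE 0.95), -0.31 without dying replicate 1 and 2.92 without dying replicate 2. Between dying and sham neurons it was -1.60 (SE 0.95), and 0.01 without dying replicate 1. Adcy1, the other calcium-stimulated cyclase of the hippocampus, was not well above background on any array.

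Adcy5 and Adcy6 are the pair of cyclases that calcium and Gi proteins inhibit. Adcy5 was at 4.25 and 4.57 on naïve arrays, 4.86 and 4.52 on sham arrays, 4.69 and 4.78 on surviving arrays, and 6.07 and 5.49 on dying arrays. Both dying arrays lay above all 6 others, which overlapped with each other apart from the naïve and surviving arrays. Dying neurons were higher than sham by 1.09 (SE 0.46), a 2.13-fold difference, and surviving neurons were lower than dying neurons by a difference of -1.05 (SE 0.46). The difference between dying and sham neurons was positive in all 15 alternatives, from 0.65 to 2.29. That between surviving and dying neurons changed sign in 1 of 16, the normexp background correction, where it was 0.42.

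Of the 2 probes of Adcy6, the brighter was at 4.06 and 4.80 on naïve arrays, 5.47 and 5.07 on sham arrays, 5.32 and 4.71 on surviving arrays, and 4.66 and 5.25 on dying arrays. The groups of injured and sham rats overlapped, and surviving and dying neurons differed by 0.06 (SE 0.52), a sign that turned with quantile normalization, without surviving replicate 1 and without dying replicate 1. Both sham arrays lay above both naïve arrays, by a difference of 0.84 (SE 0.52). The dimmer probe was at -0.58 and -0.21 on naïve arrays, 0.24 and -0.04 on sham arrays, -0.34 and -0.32 on surviving arrays, and -1.91 and -1 on dying arrays, and was well above background on all arrays except sham replicate 2 and dying replicate 1. By this probe both dying arrays were the lowest. The difference between surviving and dying neurons was 1.13 (SE 0.50), or at least 0.85 with dying replicate 1 raised to the lowest signal well above background there, and stayed positive in all 16 alternatives, down to 0.06 with the normexp correction. The brighter probe did not have this order.

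Adcy2 belongs to the cyclases that G protein beta-gamma subunits stimulate, together with Adcy4 and Adcy7. Its level was 8.17 and 8.47 on naïve arrays, 8.72 and 8.33 on sham arrays, 7.65 and 7.81 on surviving arrays, and 8.61 and 6.97 on dying arrays. Both surviving arrays lay below the 4 arrays of uninjured rats, while dying replicate 1 lay within the range of uninjured rats and dying replicate 2 below all other arrays. The difference from sham was -0.80 (SE 0.61) in surviving neurons and -0.73 (SE 0.61) in dying neurons. Quantile normalization, the authors' series values and the median of probes above background turned both signs, the normexp correction turned that of surviving neurons, and without dying replicate 2 the difference of dying neurons was 0.09.

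Adcy9 is a cyclase that is widely expressed and only weakly answers to forskolin. Its brighter probe was at 8.56 and 9.31 on naïve arrays, 10.02 and 9.72 on sham arrays, 9.75 and 9.82 on surviving arrays, and 8.89 and 9.93 on dying arrays. By this probe, surviving, dying and sham neurons overlapped, and surviving exceeded dying neurons by 0.38 (SE 0.54), and by -0.14 without dying replicate 1. The dimmer probe was at 3.52 and 4.74 on naïve arrays, 4.70 and 4.93 on sham arrays, 5.42 and 5.04 on surviving arrays, and -2.76 and 5.64 on dying arrays. Dying replicate 1 lay far below all other arrays and dying replicate 2 above them. The difference between surviving and dying neurons was 3.79 (SE 2.18) and rested on dying replicate 1, where the probe was not well above background. Without that array the difference was -0.41, and without dying replicate 2 it was 7.99, resting on that signal alone. With that signal raised to the lowest one well above background on its array, the difference was 3.09 and the replicates of dying neurons differed by at least 6.99.

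**Figure D2:**
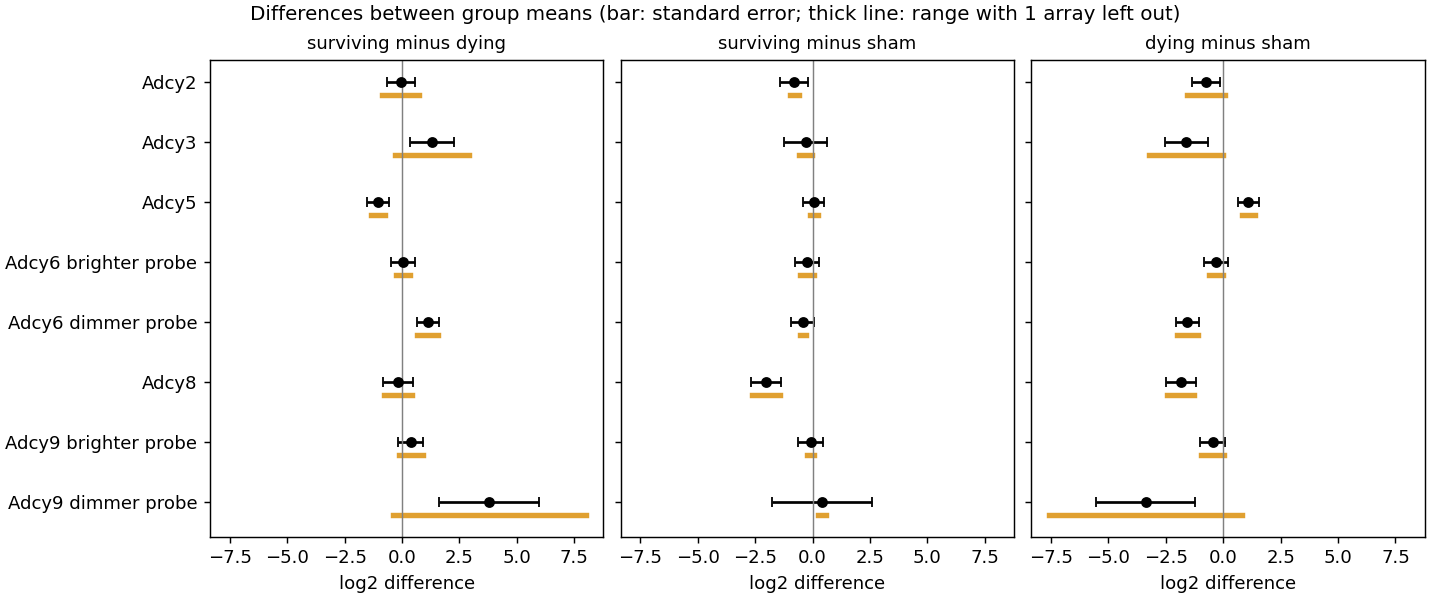
Log2 differences between group means for each cyclase probe (points) with the standard error of the 4-group fit (thin bars) and the range when each array of the groups compared was left out in turn (thick lines). The dimmer Adcy9 probe ran from -0.41 to 7.99 between surviving and dying neurons, while Adcy5 ran from -1.34 to -0.75 (0.42 with the normexp correction). The 7.99 rests on dying replicate 1, where that Adcy9 probe was not well above background.

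The 8 probes did not move together. Between surviving and dying neurons 5 were higher and 3 lower in surviving neurons, with a median difference of 0.22 beside 0.14 over all probes tested. Against sham, 2 were higher and 6 lower in surviving neurons, with a median of -0.28 beside -0.43. In dying neurons 1 was higher and 7 lower, with a median of -0.73 over the 7 tested beside -0.46. The dimmer Adcy6 probe, not tested there, differed by -1.56, which rests in part on signals not well above background. Over all 8 probes the median was -1.14, beside -0.74 over all probes, tested or not. Without dying replicate 1, 4 were higher and 4 lower than sham. Groups did not overlap for 2 of 8 probes between surviving and dying neurons, where 52.2% of all probes tested did not, and for 4 of 8 between surviving and sham neurons, where 77% did not. Between dying and sham neurons they did not overlap for 2 of the 7 probes tested, beside 76.7%. Between sham and naïve neurons 7 of 8 probes were higher in sham, with a median difference of 0.39 beside 0.37 over all probes tested, and the groups did not overlap for 3 of 8, beside 44.1%. The comparisons with sham share the same 2 sham arrays. These directions moved with the scaling. With the 75th percentile, 6 probes were higher and 2 lower than sham in surviving neurons, 3 higher and 5 lower in dying neurons, and 4 higher and 4 lower in sham against naïve neurons. The split between surviving and dying neurons stayed at 5 and 3 with that scaling, was 4 and 4 with quantile normalization and 8 and 0 with the normexp correction (median 0.95), and was 3 and 5 without dying replicate 1.

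Genes with the most similar pattern across the 8 arrays were sought among 9159 gene-named probes, each measured well above background on each of the 8, with the brighter probe standing for Adcy6 and Adcy9. The genes named are among the 3 most similar to each cyclase, and not all of those are named. These correlations describe 8 arrays that share slides and groups. For Adcy2 they were Vcam1 (r = 0.987), LOC682454 (0.979) and Dusp22 (0.978). Adcy3 itself was not well above background on dying replicate 1, its lowest array by far. For Adcy3 they were Tspan31 (r = 0.990) and Stxbp5 (0.983). For Adcy5 they were Csk (r = 0.990), Vwf (0.988) and Cib1 (0.988), and for Adcy6 Lgmn (r = 0.972), LOC689688 (0.960) and RT1-CE4 (0.952). For Adcy8 they were RGD1310174 (r = 0.952) and Capn2 (0.951), and for Adcy9 RGD1563595 (r = 0.965), Cd82 (0.962) and Slc12a7 (0.954). Vwf, named for Adcy5, also serves below as a marker of endothelium. It was at 4.65 and 4.20 on sham arrays and at 6.86 and 5.87 on dying arrays.

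Among the other cyclases, 1 of the 2 probes of Adcy7 passed the test against sham. It was at -2.99 and -3.03 on naïve arrays, -2.53 and -2.36 on sham arrays, 0.64 and 0.93 on surviving arrays, and 1.28 and 0.29 on dying arrays. It was well above background on all 4 arrays of injured rats and on none of uninjured rats. The difference against sham was at least 2.02-fold in surviving (adjusted p = 0.00953) and at least 2.01-fold in dying neurons (adjusted p = 0.00415). Only the groups where it was higher brought the probe into the test, so these p-values carry no support. When any 1 of the 4 arrays compared was left out, the probe no longer passed in surviving neurons. Here and below, such a bound sets the mean of the brighter group against the lowest signal well above background on each array of the other group, or the signal of the probe where that was higher. The other Adcy7 probe, well above background on all 8 arrays, was at 0.91 and 0.97 on sham arrays, 1.10 and 3.05 on surviving arrays, and 1.64 and 2.48 on dying arrays and did not pass (adjusted p = 0.306 and 0.246). Adcy4 was well above background on 5 arrays and did not pass. Adcy10, the soluble cyclase that bicarbonate stimulates, was well above background on both surviving arrays alone, at -1.59 and 0.13. The lowest signal well above background was -2.30 and -1.63 on those arrays but -0.30 and -0.15 on sham arrays. With sham raised to the latter, the difference of surviving from sham neurons was -0.50, so a higher level than in sham is not shown.

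Cap1 and Cap2 are actin regulators named as cyclase-associated proteins. Cap1 was at 5.50 and 5.25 on sham arrays, 3.74 and 2.83 on surviving arrays, and -1.32 and 2.49 on dying arrays. It fell in dying neurons (difference from sham -4.79, SE 1.08, adjusted p = 0.0123), passing under 2 of 4 other scalings. The size of that difference rests in large part on dying replicate 1. There Cap1 was close to the lowest signal well above background on that array, -1.35. Cap2 fell by 1.86 in dying neurons (adjusted p = 0.0438) and passed under 0 of the 4 other scalings, where its difference lay between -1.13 and -0.72. Neither passed when 1 sham replicate was left out, nor Cap2 without dying replicate 1.

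The wider cyclic AMP pathway was described from 7 lists with 96 genes, each read from its brightest probe. Between surviving and dying neurons 0 of 71 genes tested passed in limma, 9 had an unadjusted p under 0.05 beside 5640 of all 27391 probes, and 11 of 73 passed without dying replicate 2 beside 5408 of 28209. Between sham and naïve neurons 0 of 61 passed, and 3 had an unadjusted p under 0.05. Between surviving and sham neurons 12 of 72 passed, 5 higher and 7 lower, which is 16.7% beside 16.3% of all probes. Between dying and sham neurons 26 of 66 passed, 4 higher and 22 lower, which is 39.4% beside 40.8% of all probes. The median difference was -0.23 in surviving and -1.07 in dying neurons, beside -0.43 and -0.46 over all probes tested. Under the 4 other scalings it lay between 0.41 and 0.74 in surviving and between -0.34 and -0.04 in dying neurons. With scaling to the 75th percentile, 11 genes were higher and 7 lower in surviving, and 10 higher and 15 lower in dying neurons. With only genes well above background on all 4 arrays compared, 6 of 55 passed in surviving neurons, 0 higher and 6 lower. In dying neurons 18 of 48 then passed, 1 higher and 17 lower. Of all probes, 1781 of 18171 and 5534 of 16180 passed under that rule. Single arrays weighed heavily. In surviving neurons 0 genes passed without sham replicate 1, 2 without sham replicate 2, and 1 without either surviving replicate. In dying neurons 4 passed without sham replicate 1, 12 without sham replicate 2, 21 without dying replicate 1 and 31 without dying replicate 2. The normexp correction left 0 in both. The shares of all probes that passed in either direction, 16.3% in surviving and 40.8% in dying neurons, stand beside each list below.

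**Figure D3:**
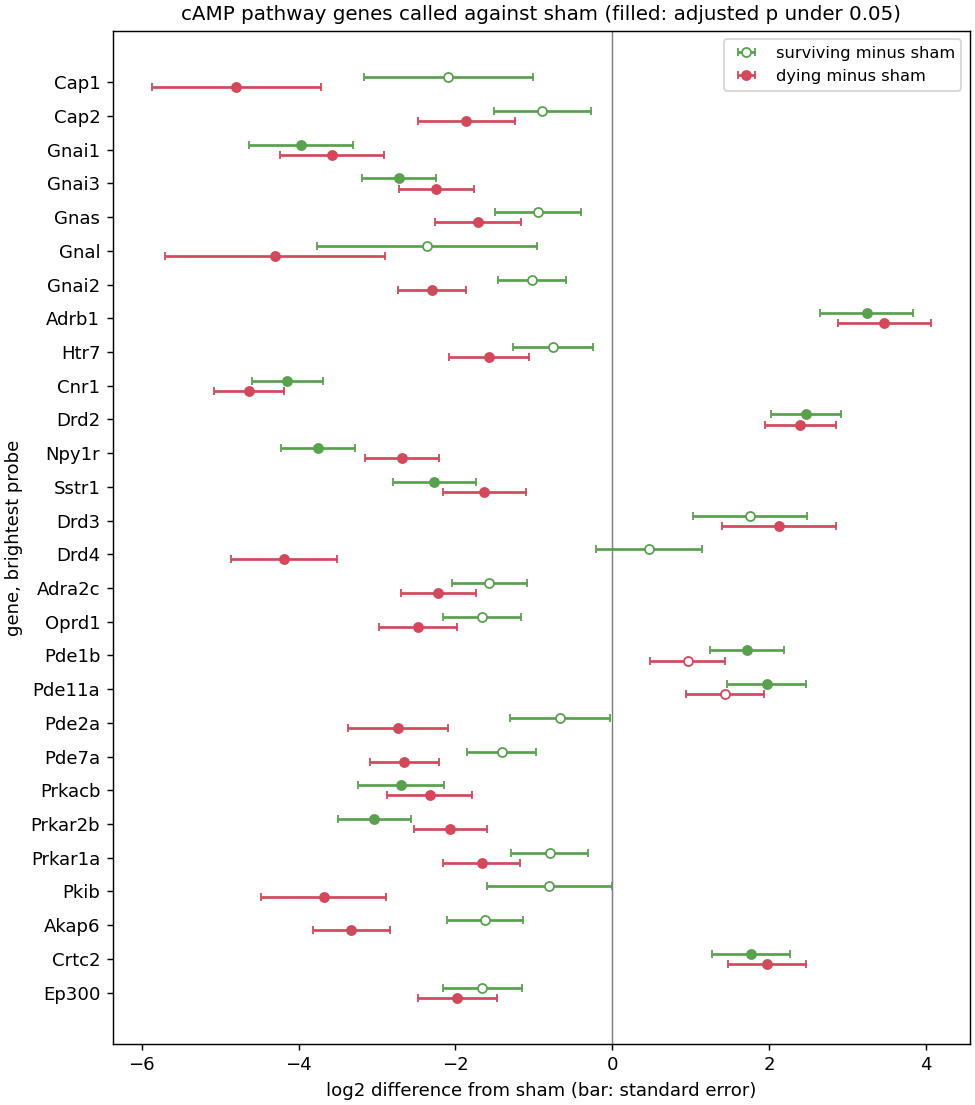
Log2 difference from sham, with its standard error, of the cyclic AMP pathway genes that passed the test in surviving (green) or dying (red) neurons, filled where the adjusted p was under 0.05. Cnr1 stood at -4.14 and -4.63 under the median scaling, and Adrb1, Drd2 and Crtc2 were higher than sham in both groups.

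Of the G protein alpha subunits, 2 of 8 tested fell in surviving neurons and 5 of 7 in dying neurons, and 0 rose. With the 75th percentile 1 rose and 2 fell in surviving, and 3 fell in dying neurons. Gnai3, an inhibitory subunit, was at 5.80 and 5.05 on sham arrays, 2.63 and 2.78 on surviving arrays, and 3.30 and 3.06 on dying arrays, and passed in both (adjusted p = 0.0142 and 0.0102). Both differences stayed below 0 under the 4 other scalings, from -1.94 to -1.70 in surviving and from -1.52 to -1.20 in dying neurons. Gnai1 was well above background on both sham arrays alone. It was at least 4.98-fold lower in surviving and at least 4.18-fold lower in dying neurons (adjusted p = 0.0121 and 0.00672). Only sham brought it into the test, so these p-values carry no support. In dying neurons Gnai2 (difference -2.30, adjusted p = 0.00696), Gnas, which encodes the stimulatory subunit (-1.71, adjusted p = 0.0393), and Gnal (adjusted p = 0.0414) also fell. Only sham brought Gnai2 and Gnal into this test, so their p-values carry no support. Neither was well above background on dying replicate 1. With that array raised to its lowest signal well above background, Gnal was at least 9.91-fold lower than sham, and without that array its difference was -1.78. Gnas and Gnal passed under 0 of the 4 other scalings. Gnai1 and Gnai3 no longer passed in surviving neurons without any 1 of the 4 arrays compared. In dying neurons 0 of the 5 passed without sham replicate 1, and Gnas and Gnal did not pass without sham replicate 2 or dying replicate 1.

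Of the Gs-coupled receptors and PACAP, the peptide that stimulates cyclases through its own receptor, 1 of 9 tested rose in surviving neurons, and in dying neurons 1 of 8 rose and 1 fell, or 1 and 0 under each of the 4 other scalings. Adrb1, the beta-1 adrenergic receptor, was at -1.30 and -2.17 in sham with 1.53 and 1.48 on surviving arrays and 2.21 and 1.26 on dying arrays. It was well above background only in injured rats. Its level was at least 3.32-fold above sham in surviving and at least 3.89-fold above it in dying neurons (adjusted p = 0.0158 and 0.00524). Only the injured groups brought it into the test, so these p-values carry no support. Adrb1 did not pass in surviving neurons without any 1 of the 4 arrays. Htr7, a serotonin receptor, fell in dying neurons (-1.57, adjusted p = 0.0400) but did not pass under any of the 4 other scalings, nor without either sham replicate or dying replicate 1. The 3 probes of Adcyap1, the gene of PACAP, disagreed, and are taken by their mean over the 8 arrays. The brightest was at 2.80 and 2.24 in sham and at 3.07 and -1.83 in dying neurons, the last not well above background. The next was at 0.49 and 0.44 in sham and at 2.25 and 1.39 in dying neurons. The dimmest in that mean, though not on naïve and sham arrays, was at 2.07 and 1.98 on sham arrays. It was at 0.10 and 0.36 on surviving and at -2.32 and -3.45 on dying arrays. In dying neurons it was at least 13.3-fold lower than in sham (adjusted p = 0.00181). Only sham brought it into that test, so this p-value carries no support.

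Of the Gi-coupled receptors, 1 of 18 tested rose and 3 fell in surviving neurons, and 2 of 17 rose and 6 fell in dying neurons. This split moved with the scaling. With the 75th percentile 5 rose and 3 fell in surviving, and 5 rose and 5 fell in dying neurons, where it was 6 and 5 with the median of probes above background. The cannabinoid receptor Cnr1 was at 7.08 and 6.76 on sham arrays, 2.72 and 2.83 on surviving arrays, and 2.10 and 2.48 on dying arrays. It fell by 4.14 in surviving and by 4.63 in dying neurons (adjusted p = 0.00267 and 0.00120), and passed in 13 and 14 of 15 alternatives. Npy1r, a neuropeptide Y receptor, was at 3.79 and 3.31 on sham arrays, -0.14 and -0.27 on surviving arrays, and 0.63 and 1.10 on dying arrays, and fell in both (adjusted p = 0.00461 and 0.00570). The somatostatin receptor Sstr1 fell by 2.27 in surviving neurons (adjusted p = 0.0296) and by 1.63 in dying neurons (adjusted p = 0.0412), where it passed under 0 of the 4 other scalings. The dopamine receptor Drd2 was well above background only in injured rats. It was at least 2.65-fold higher in surviving and at least 2.51-fold higher in dying neurons (adjusted p = 0.0156 and 0.00690). In dying neurons, Drd3 was at least 3.06-fold higher (adjusted p = 0.0484) and Drd4 at least 8.65-fold lower (adjusted p = 0.00468). Drd2 and Drd3 were tested only through injured neurons and Drd4 only through sham, so these p-values carry no support. Drd4 was at 2.40 and 0.40 on sham arrays, and its bound is taken from their mean. Adra2c (-2.22, adjusted p = 0.0108) and Oprd1 (-2.48, adjusted p = 0.0103) also fell in dying neurons. Drd3 and Adra2c passed under 3 and Oprd1 under 2 of the 4 other scalings. Whether these differed from surviving neurons is given by the comparison of both groups, in which none passed. For Drd4 that comparison gave 1.76 and 1.98 on surviving against -2.52 and -3.05 on dying arrays (adjusted p = 0.0947). In surviving neurons Cnr1 did not pass without sham replicate 1, Npy1r without that array or either surviving replicate, and Sstr1 and Drd2 without any 1 of the 4 arrays. In dying neurons Sstr1 and Drd3 did not pass without any 1 of the 4 arrays, Drd2 and Oprd1 without either sham replicate, and Npy1r and Adra2c without sham replicate 1.

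Phosphodiesterases break down cyclic nucleotides. In surviving neurons 2 of 9 tested rose and 0 fell, and in dying neurons 0 of 7 rose and 2 fell. In dying neurons the split was 2 and 2 with the 75th percentile and with the series values. Pde1b, which calcium and calmodulin activate, was at 1.18 and 1.25 on sham arrays, 2.86 and 3.01 on surviving arrays, and 2.58 and 1.77 on dying arrays, and rose in surviving neurons (1.72, adjusted p = 0.0454). Pde11a rose at least 2.27-fold in surviving neurons (adjusted p = 0.0369). It was not well above background on either sham array, and only surviving neurons brought it into the test. That p-value therefore carries no support. Pde7a (-2.65, adjusted p = 0.00490) and Pde2a (-2.73, adjusted p = 0.0140) fell in dying neurons. Pde2a was at 2.01 and 1.79 on surviving arrays and -0.93 and 0.59 on dying arrays, a difference that did not pass (adjusted p = 0.151). Pde1b and Pde11a did not pass without any 1 of the 4 arrays compared, Pde7a without sham replicate 1, and Pde2a without either sham replicate or dying replicate 1.

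Of protein kinase A with its inhibitors and anchors, 2 of 14 tested fell in surviving and 5 of 14 in dying neurons, and 0 rose. With the 75th percentile 1 rose and 2 fell in surviving, and 3 fell in dying neurons. With the median of probes above background, 1 rose and 1 fell in surviving, and 1 rose and 1 fell in dying neurons. The series values gave 1 that rose and 3 that fell in dying neurons. The catalytic subunit Prkacb was at 10.36 and 10.05 on sham arrays, 6.96 and 8.07 on surviving arrays, and 8.22 and 7.54 on dying arrays (adjusted p = 0.0203 and 0.0140). The regulatory subunit Prkar2b was at 2.24 and 2.61 on sham arrays, -0.38 and -0.84 on surviving arrays, and 0.11 and 0.61 on dying arrays (adjusted p = 0.00937 and 0.0125). In dying neurons the anchor Akap6 (-3.33, adjusted p = 0.00364), the inhibitor Pkib (-3.68, adjusted p = 0.0108) and the regulatory subunit Prkar1a (-1.67, adjusted p = 0.0296) fell as well. Pkib was not well above background on dying replicate 1. Only sham brought Pkib into this test, so its p-value carries no support. Akap6 passed in 14 of 15 alternatives, and Prkar1a under 0 of the 4 other scalings. In dying neurons Prkacb passed under 2 and Prkar2b under 1 of them, and neither passed there without either sham replicate, or in surviving neurons without any 1 of the 4 arrays. Pkib did not pass without sham replicate 1, nor Prkar1a without either sham replicate or dying replicate 1.

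Of the cyclic AMP effectors and CREB factors, 1 of 9 tested rose in surviving neurons, and 1 rose and 1 fell in dying neurons. In dying neurons 3 rose and 0 fell with quantile normalization, and 4 rose and 0 fell with the median of probes above background. Of all 25623 probes, 5201 rose and 4078 fell with the former, and 8192 rose and 3804 fell with the latter. Crtc2, a coactivator of CREB, was at 0.74 and 0.26 on sham arrays, 2.16 and 2.37 on surviving arrays, and 2.73 and 2.21 on dying arrays and rose in both (adjusted p = 0.0483 and 0.0179). The coactivator Ep300 fell by 1.98 in dying neurons (adjusted p = 0.0183) and passed under 2 of the 4 other scalings. Crem, a CREB-related factor, was at 4.50 and 4.24 on sham arrays, 3.36 and 1.87 on surviving arrays and 2.45 and 3.17 on dying arrays and did not pass (adjusted p = 0.0928 and 0.0814). Crtc2 did not pass in surviving neurons without any 1 of the 4 arrays, nor in dying neurons without either sham replicate or dying replicate 1, and Ep300 did not pass without either sham replicate.

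Marker genes of other cell types differed between the groups, and their part in the results above was not tested. Of 9 genes of microglia and macrophages, between 7 and 9 were well above background on each array, and 5 of 8 tested rose in dying neurons against sham, where 3481 of all 25623 probes tested rose. In surviving neurons 0 of 9 rose under the median scaling, 3 with the 75th percentile and 2 with quantile normalization. It was 4 with the series values and with the median of probes above background. Of all 26905 probes, 1555, 3860 and 2374 rose under the first 3 of these, and 5009 under the last. With the series values 4345 of 26913 rose. In dying neurons fewer of these genes rose when either sham replicate was left out, as was so of all probes. Itgam was tested in both comparisons, and Cx3cr1 in surviving neurons, only through injured neurons, where they were higher. A call of either carries no support. Their summed level, in multiples of the array median, was 128 and 255 on naïve arrays, 273 and 245 on sham arrays, 335 and 349.5 on surviving arrays, and 1977 and 1113 on dying arrays. The probe of C1qb gave the most signal to this sum over the 8 arrays, at 6.34 and 6.06 in sham and at 9.82 and 8.78 in dying neurons. Lists below are likewise led by the probe with the most signal in the sum, which need not be so on each array and does not rank the genes by their RNA. The 6 endothelium and pericyte genes were led by Pdgfrb, with Tek not well above background on any array. They summed to 55.9 and 83.5 on naïve arrays and to 81.7 and 61.8 on sham arrays. On surviving arrays the sum was 64.4 and 52.0, and on dying arrays 286 and 104. Against sham, 1 of 5 tested rose in surviving neurons, where 1555 of all 26905 probes rose. In dying neurons 2 of 5 rose, where 3481 of all 25623 probes rose. Both counts changed when 1 array was left out. Flt1 was at -2.18 and -1.95 on sham arrays, not well above background on either. It was well above background on all arrays of injured rats. Only the injured groups brought Flt1 into these tests, so a call of Flt1 carries no support.

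The 6 genes of CA3 pyramidal neurons, led by Nrgn, were well above background on all arrays, apart from 1 gene on dying replicate 1. Their summed level was 5697 and 8081 on naïve arrays, 10725 and 9303 on sham arrays, 5957 and 5831 on surviving arrays, and 3053 and 3229.5 on dying arrays. The sum is of probe signals, most of it from the probes of Nrgn and Snap25. Under the median scaling Snap25 fell in surviving neurons (-2.67, adjusted p = 0.0419), which passed under 0 of the 4 other scalings and not when any 1 of the 4 arrays was left out, while Nrgn (-0.59), Slc17a7 (-1.34), Camk2a (0.14), Neurod2 (1.34) and Grik4 (0.32) did not pass. The median of the list against sham was -0.23 there and 0.56 with the 75th percentile. In dying neurons Nrgn (-1.47, adjusted p = 0.0327) and Snap25 (-3.83, adjusted p = 0.00678) fell, and the median of the list was -2.03, between -1.30 and -1.02 under the 4 other scalings, under each of which 1 gene passed. Of the 6 genes, 0 passed without sham replicate 1, without sham replicate 2 or dying replicate 1 it was 1, and without dying replicate 2 it was 5. The 6 astrocyte genes, led by Slc1a3, with 5 or 6 well above background on each array, summed to 693 and 775 on naïve arrays, 1199 and 772 on sham arrays, 424 and 437 on surviving arrays, and 986 and 446 on dying arrays. The 6 oligodendrocyte genes, led by Mog, with 4 to 6 well above background, summed to 175 and 257 on naïve arrays, 226 and 290.4 on sham arrays, 58.9 and 64.1 on surviving arrays, and 178 and 73.8 on dying arrays. The 6 interneuron genes, led by Pvalb and with 5 or 6 well above background, summed to 330.2 and 453 on naïve arrays, 416 and 394 on sham arrays, 164 and 147 on surviving arrays, and 676 and 159 on dying arrays. Dying replicate 1 was above dying replicate 2 for all of these lists except that of pyramidal neurons. On dying replicate 1, Sst and Vip gave most of the interneuron sum. Pvalb was at 5.85 there and at 7.42 and 7.31 on sham arrays. Against sham, 2 of 6 interneuron, 2 of 5 astrocyte and 1 of 5 oligodendrocyte genes tested fell in dying neurons. Of all 25623 probes tested, 6975 fell there. In surviving neurons 1 gene of each list fell, beside 2833 of all 26905 probes, and 0 of these genes rose in either group. Gad1 was tested only through sham, where it was higher, so a call of Gad1 carries no support. With the 75th percentile, 1 interneuron gene fell in dying neurons and 0 in surviving neurons. Of all probes, 4407 and 1304 then fell.

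**Figure D4:**
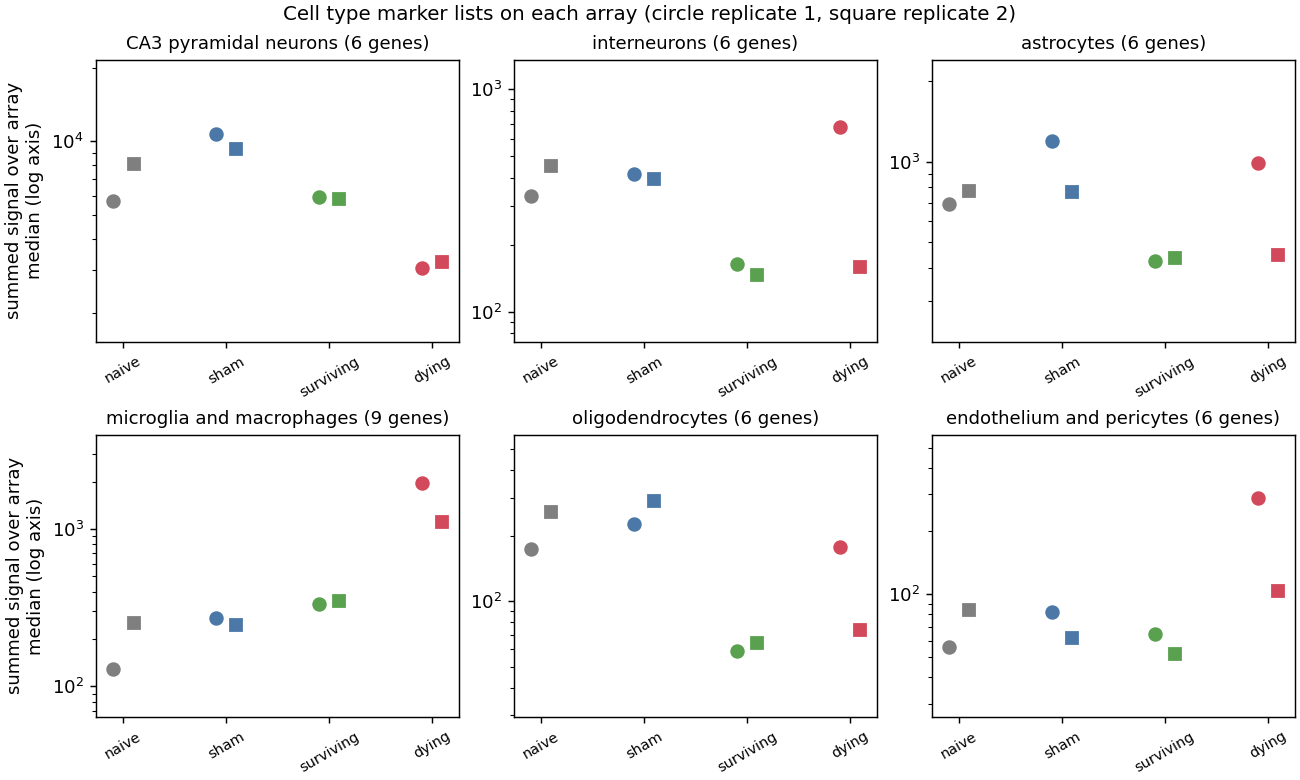
Summed signal of 6 cell type marker lists on each array, in multiples of the array median on a log axis. The microglia and macrophage genes reached 1977 and 1113 on the dying arrays against 273 and 245 on the sham arrays, while the pyramidal neuron genes were at 3053 and 3229.5 against 10725 and 9303.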

How the data were processed

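Processed intensities come from the authors, whose scanner software (Agilent Feature Extraction 9.1.3.1, per the file headers) subtracted background and corrected trends within an array, with no step between arrays. The other deposited columns hold mean and background intensities, and other entries that mark a spot as control, non-uniform, saturated or well above background. The authors also deposited a series table of signal values scaled by array, which served as an alternative. Amplification used MessageAMP II per the methods, and RiboAmp HS or MessageAMP II per the labels.

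Spots marked non-uniform were dropped, replicate spots were averaged, signals were divided by the array median, floored at 0.01 and put on the log2 scale. The 4 groups were fitted to all 8 arrays with limma 3.58.1 in R 4.3.3 (4 residual degrees of freedom), which was tested on simulated data. A probe was tested, two-sided, if well above background throughout 1 of its groups. Where only the group with the higher level met this, the p-value carries no support for a difference. The p-values measure only the spread between these arrays.

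The members and lists were chosen with earlier results of these data known. By the rule for named genes, pathway genes are read from their brightest probe, and those that passed, or had the largest differences in a list, may be named. Crem is of the latter kind. Some genes these rules choose are not reported here, though counts over lists include them. Accessions of 6 of the 8 cyclase probes matched the same symbol in RefSeq (GRCr8). Alternatives changed scaling, background correction, floor, probes tested and arrays used.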

Additional observations from a re-analysis of the deposited data

How the results depend on the processing

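The number of cyclase probes that passed was 0 in each comparison and under most alternatives. Between surviving and dying neurons, with arrays left out in turn, it changed only without dying replicate 2. This concerned Adcy3 (difference 2.92) and the dimmer Adcy9 probe (7.99). A lone array is then assumed to vary like the other groups. That array was dying replicate 1, where both probes were not well above background. Only surviving neurons, where they were higher, brought them into this test, which therefore carries no support. Between surviving and sham neurons it was 1 with only the 4 arrays compared (Adcy8, lower), beside 10456 of 26905 probes. It was also 1 with the median of probes above background on all arrays, chosen after seeing the data (Adcy5, higher, beside 6402 of 26905). Between dying and sham neurons it was 1 (Adcy5, higher) with 75th percentile scaling (beside 11071 of 25623 probes) and quantile normalization (9279 of 25623). It was also 1 there with a floor of 0.1 (10965 of 25623) and the series table (11430 of 25641). With the median of probes above background it was 1 as well (11996 of 25623). There it ranged from 0 to 3 with arrays left out: Adcy2 and Adcy8 lower without dying replicate 1, and Adcy3 and the dimmer Adcy9 probe lower and Adcy5 higher without dying replicate 2. The causes were not tested.

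The replicate block gave 0 cyclase probes in each comparison, and 2702 of all probes between surviving and sham neurons in place of 4388. The replicate numbers did not pair the arrays (correlations of deviations from -0.19 to 0.07), and a crossed pairing of surviving and dying arrays, also added later, gave 0. Of 32 cyclase differences, 10 kept their sign in all alternatives, and 71 of 496 alternative values changed sign. All probes passing against sham numbered 0 with normexp in both groups, 1781 and 5534 with probes above background on all 4 arrays, and 10456 with only the 4 arrays in surviving neurons. They ranged from 190 to 398 in surviving and from 1857 to 12794 in dying neurons with arrays left out. Low signal over background limits the dimmer Adcy6 probe, Adcy1, Adcy4 and Adcy10.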
